A study of Mus musculus with 15 samples.

Results

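The 8 genes described here encode the colony-stimulating factors and the chains of their receptors. They are the ligands Csf1, Csf2 and Csf3 and the receptor genes Csf1r, Csf2ra, Csf2rb, Csf2rb2 and Csf3r. They were chosen by symbol, and all 8 were found among the 22180 genes with a probe set of their own and among the 15468 genes bright enough to be tested. RNA came from RAW264.7, an established mouse macrophage-like line derived from a tumour induced by Abelson murine leukaemia virus. There were 15 arrays in 5 groups of 3. The cells without LPS received PBS and vehicle, which was 0.1% ethanol. The other 4 groups received 1.0 µg/mL lipopolysaccharide (LPS), a bacterial membrane component sensed through a Toll-like receptor, after 30 min with vehicle, 5.0 µM 13-HDHEA, 5.0 µM 16-HDHEA or 2.5 µM of each (the combined treatment). All groups held the same vehicle, and RNA was taken after 24 h. 13-HDHEA and 16-HDHEA are hydroxylated docosahexaenoyl ethanolamides, derivatives of a fish-oil fatty acid, and differ in the carbon that carries the hydroxyl group. Each replicate number is 1 of 3 experiments, and there was no group with an HDHEA but without LPS.

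Colony-stimulating factors are secreted proteins that drive the survival, growth and differentiation of myeloid cells. Csf1 encodes M-CSF, which binds the receptor tyrosine kinase encoded by Csf1r, the receptor on which most macrophages depend for survival. Csf2 encodes GM-CSF, which binds a specific alpha chain (Csf2ra) that signals through the common beta chain (Csf2rb) and the kinase JAK2 to STAT5. Mice carry a close paralog of that beta chain, Csf2rb2, whose product serves the interleukin-3 receptor. Csf3 encodes G-CSF, the main growth factor of neutrophils, and Csf3r its single-chain receptor. Activated macrophages, fibroblasts and endothelial cells are known sources of all 3 ligands.

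Values are log2 expression after RMA. Array medians ran from 3.62 to 3.69, and the 40th percentile of an array, under which a probe set is called dim here, from 3.16 to 3.22. All 13 macrophage markers looked at lay above that percentile in every group, and their mean was 9.62 to 9.75 on the arrays without LPS and 10.01 to 10.18 on those with LPS. With LPS and vehicle 5 of the 13 were called higher, Adgre1 by the most (4.50), and 2 lower, Cx3cr1 (-2.43) and Tyrobp (-0.37). Over all genes tested, 13.5% were called higher and 16.3% lower. The part of these markers in the results was not tested. Of 12 neutrophil markers, 3 to 5 a group lay above the 40th percentile. Their mean ran from 2.89 to 3.13 without LPS and from 3.17 to 3.42 with LPS. The defining neutrophil markers S100a9, Elane, Camp, Ngp and Retnlg were too dim to be tested. Above the percentile lay 6 to 7 of 10 fibroblast markers (mean 3.09 to 3.54), 2 to 3 of 7 lymphocyte markers (2.84 to 3.15) and 9 of 10 epithelial and endothelial markers (3.71 to 3.98). Of these, limma called Pdgfra (0.96, adjusted p = 0.0472) and Cdh5 (0.42, adjusted p = 0.0412) higher with LPS, and Vwf (-0.49, adjusted p = 0.0136) and Cd4 (-0.47, adjusted p = 0.0346; dim with LPS) lower. Their part in the results was not tested. With 3 arrays a group, precision is limited by their number.

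Windows from RefSeq's promoter table (GRCm38.p6) were used for 5 of the 8 genes: Csf1, Csf2, Csf2ra, Csf2rb2 and Csf3r. None was found for Csf3 and Csf2rb. Any window of Csf1r was set aside before the search, so its absence here says nothing about the table. The 250 bases before the annotated start are printed for the 3 whose windows matched at least 1 of 8 motifs of factors known to act in macrophages, so that the match can be seen in its place. A start can be that of the longest gene model, and the motifs were chosen after the windows had been read. Each sequence runs 5′ to 3′ on the gene's own strand, which is the minus strand for all 3, and capitals mark the match.
Csf1, chr3:107760470-107760719: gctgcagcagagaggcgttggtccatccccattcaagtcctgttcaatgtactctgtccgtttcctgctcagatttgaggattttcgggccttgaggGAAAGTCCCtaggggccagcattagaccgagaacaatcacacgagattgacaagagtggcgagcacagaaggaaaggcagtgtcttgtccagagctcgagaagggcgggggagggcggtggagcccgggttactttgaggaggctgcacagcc
Csf2, chr11:54249900-54250149: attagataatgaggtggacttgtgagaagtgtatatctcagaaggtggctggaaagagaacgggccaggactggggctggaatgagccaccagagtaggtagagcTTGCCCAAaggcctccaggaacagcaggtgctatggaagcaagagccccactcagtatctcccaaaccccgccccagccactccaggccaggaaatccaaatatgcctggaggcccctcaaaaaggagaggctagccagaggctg
Csf2ra, chr19:61228419-61228668: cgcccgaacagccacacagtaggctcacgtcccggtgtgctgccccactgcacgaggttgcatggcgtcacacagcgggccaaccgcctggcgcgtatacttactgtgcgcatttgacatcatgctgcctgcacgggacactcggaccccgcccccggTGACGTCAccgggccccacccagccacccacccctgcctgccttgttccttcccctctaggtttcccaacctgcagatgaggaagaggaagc

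The capitals in the Csf1 window are the reverse complement of GGGACTTTC, the core of a classical NF-kB motif, and lie 153 to 145 bases before the start. Over both strands, 0.289% of 32851 promoter windows of 250 bases held those letters, and 3.72% held the looser GGGNNTTTC, which the same bases also match. The Csf2 window matched TTGCNNAA, a C/EBP motif held by 9.56% of windows, at 145 to 138 bases before the start. The Csf2ra window matched the cyclic AMP response element TGACGTCA, held by 1.55% of windows, at 92 to 85 bases before the start. No window of the 5 genes matched TGANTCA (AP-1, 6.75% of windows), GAGGAAGT (PU.1 and related ETS factors, 2.44%), TTTCNNTTT (interferon-stimulated response element, 9.37%) or TATAAA (12.4%). The Csf2rb2 and Csf3r windows matched none of the 8. These are matches of letters, and no factor's binding was measured.

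LPS raised the RNA of all 3 ligands and of 4 of the 5 receptor genes, and that of Csf1r was slightly lower. The Csf1r call was lost in 6 of 14 alternative analyses and the Csf2ra call in 2. The ligands changed by far more than the receptors. Csf1 rose 9.14-fold (95% interval 6.73 to 12.4), while the receptor genes moved by between -0.24 and 0.90 on the log2 scale. Lower bounds on the mean fold were 33.6 for Csf2, by the brighter of its 2 probe sets, and 62.0 for Csf3. They leave out the spread between arrays, and the fitted 95% intervals began lower, at 21.9-fold for Csf2 and 29.1-fold for Csf3. With vehicle on both sides, limma called 8 of 8 genes at an adjusted p under 0.05, 7 higher and 1 lower. Csf3 and Csf2, dim on 3 and 2 of the 3 arrays without LPS, were bright enough to be tested only through arrays with LPS. With no filter on dim genes, 7 of 8 were called and Csf1r was not. Over all genes tested, 29.8% were called, 13.5% higher and 16.3% lower. With the experiment as a block all 8 were called as well, and 34.3% of all genes were. The median log2 difference of the 8 genes was 0.89, against 0.00 over all genes. On all 12 arrays with LPS, HDHEA groups included, 7 genes lay above every array without LPS, and Csf1r lay below them. Of all genes, 12.3% lay above in that way and 16.1% below. For Csf2ra the gap was smaller than the rounding: the 13-HDHEA array of experiment 2 and the array without LPS of experiment 3 both read 10.64. In RNA of whole cultures, a change in the RNA per cell and a change in the share of cells that express a gene cannot be told apart.

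**Figure D1:**
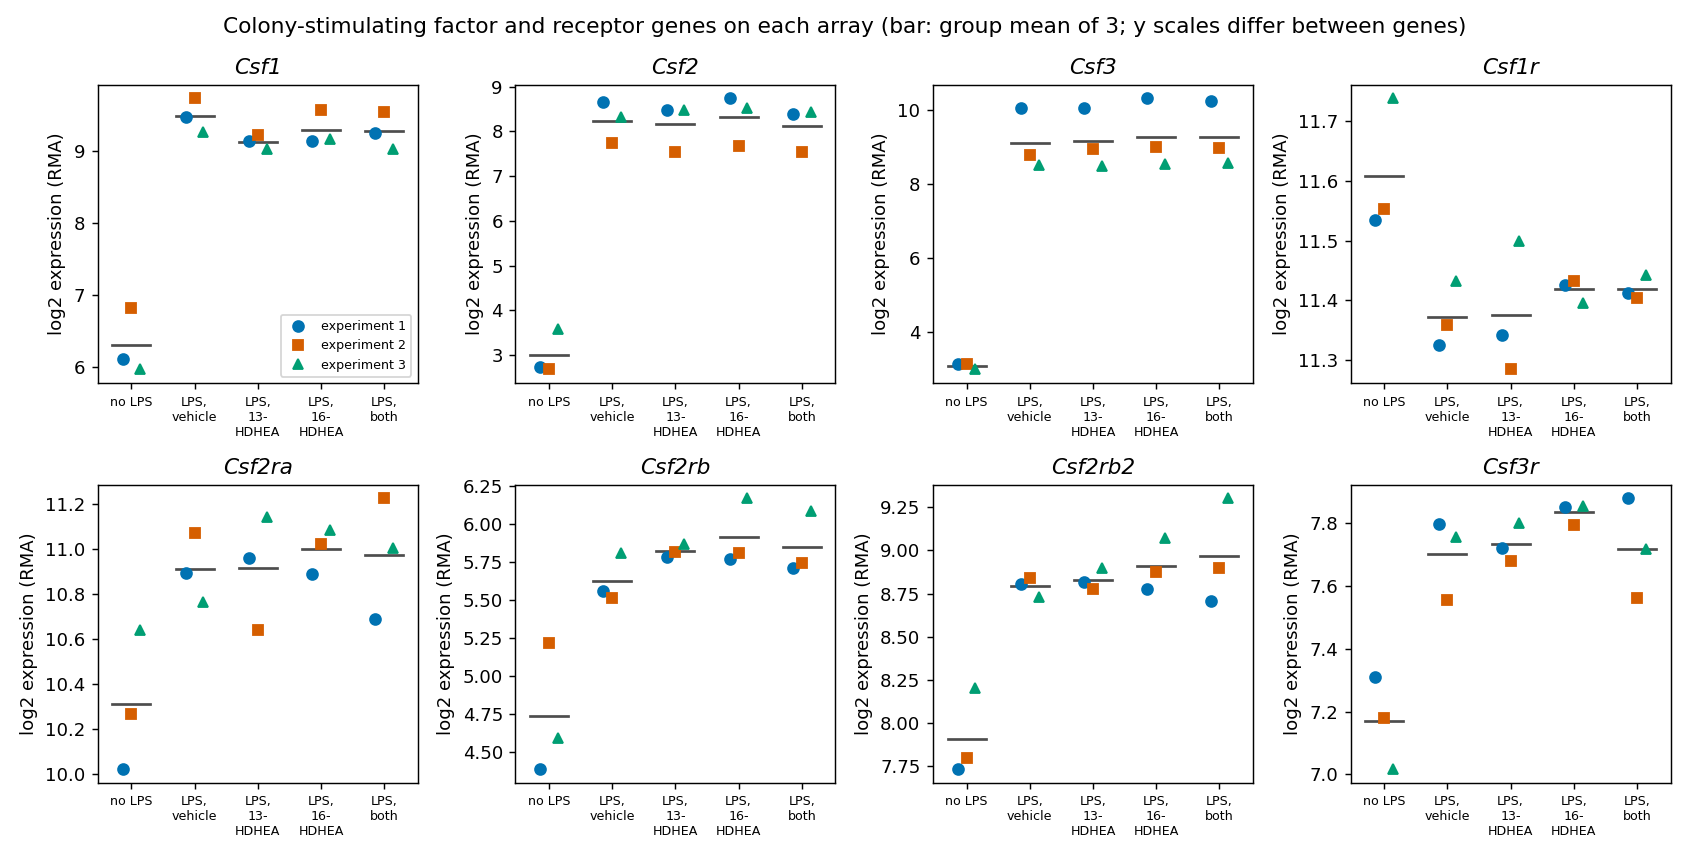
Each panel plots the log2 expression of 1 gene (y axis, RMA values) on every array of the 5 groups (x axis), with 1 point an array, shaped and coloured by experiment, and a bar at the mean of 3. The 12 arrays with LPS lie above the 3 without it for 7 genes (for Csf2ra only just) and below them for Csf1r. The 4 groups with LPS overlap in most panels.

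Csf1, the M-CSF gene, was already well above the dim range without LPS, at 6.11, 6.82 and 5.97 in experiments 1, 2 and 3. With LPS and vehicle it stood at 9.48, 9.73 and 9.27. The lowest LPS array was thus far above the highest array without LPS. The difference was 3.19 ± 0.205 (SE, 3 arrays a group; 95% interval 2.75 to 3.63; adjusted p = 5.24e-08). Of all genes tested, 0.433% had a difference this high or higher.

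Csf2, the GM-CSF gene, stood at 2.74, 2.68 and 3.58 without LPS, and 2 of these 3 arrays were below the mean 40th percentile of their group. With LPS and vehicle it reached 8.65, 7.75 and 8.31. Without LPS experiment 3 was the highest, and with LPS experiment 2 was the lowest. The fitted difference was 5.23 ± 0.365 (SE; 95% interval 4.45 to 6.02; adjusted p = 1.08e-07). As the group without LPS was dim, the mean fold is given only as a lower bound from the percentile, 33.6-fold (5.07 on the log2 scale). That bound leaves out the spread between arrays. This holds for the brighter of 2 probe sets listed for Csf2: the other differed by 0.81, and their average by 3.02 (adjusted p = 9.56e-07).

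Csf3, the G-CSF gene, was dim on all 3 arrays without LPS, at 3.14, 3.14 and 2.99. With LPS and vehicle it stood at 10.05, 8.80 and 8.51, so that experiment 1 was the highest. Its fitted difference, 6.03 ± 0.54 (SE; 95% interval 4.86 to 7.19; adjusted p = 1.18e-06), was the largest of the 8 genes. The lower bound on the mean fold, which leaves out the spread between arrays, was 62.0-fold (5.95). Of all genes tested, 0.0517% had a difference this high or higher, and for Csf2 the share was 0.0840%. Both genes passed the filter on dim genes only through arrays with LPS. With no such filter limma still called both (adjusted p = 1e-07 for Csf2 and 1.12e-06 for Csf3). Of the 12 neutrophil markers, 7 were bright enough to be tested and 2 of these rose, where 13.5% of all genes did. Among the 7, Ly6g, Mpo and Ltf were dim both without LPS and with LPS and vehicle. S100a8 rose by 1.30 (adjusted p = 0.00536) and Mmp8 by a mean of at least 1.06 on the log2 scale (adjusted p = 0.0115). Their part in the ligand values was not tested.

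Csf1r, the M-CSF receptor gene and a defining gene of macrophages, stood at 11.53, 11.55 and 11.74 without LPS and at 11.32, 11.36 and 11.43 with LPS and vehicle. The groups did not overlap, as for 41.2% of all genes, but they lay close together. The difference was -0.24 ± 0.0795 (SE; 95% interval -0.41 to -0.07; adjusted p = 0.037). Within experiments 1, 2 and 3 it was -0.21, -0.19 and -0.31. A difference as low as the mean one, or lower, was seen in 22.7% of all genes tested. The call did not hold when the array without LPS of experiment 3 was left out (-0.17, adjusted p = 0.158) or when either of the first 2 vehicle arrays was (adjusted p = 0.118 and 0.0882). It was also lost with the arrays centred on their medians (-0.18, adjusted p = 0.144), with no filter on dim genes (adjusted p = 0.0661) and with only the compared groups in the fit (adjusted p = 0.111).

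The alpha chain gene of the GM-CSF receptor and both beta chain genes rose. Csf2ra, the GM-CSF-specific alpha chain, went from 10.02, 10.26 and 10.64 to 10.89, 11.07 and 10.77. Experiment 3 had the highest value without LPS and the lowest with LPS and vehicle, and so the smallest difference, 0.13 against 0.87 and 0.81 in the other two. The mean difference was 0.60 ± 0.173 (SE; 95% interval 0.23 to 0.97; adjusted p = 0.0162). The call was lost without the first array without LPS (0.46, adjusted p = 0.0811) or without the second vehicle array (0.52, adjusted p = 0.0676).

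Csf2rb, the common beta chain shared by the receptors for GM-CSF, interleukin-3 and interleukin-5, went from 4.38, 5.22 and 4.59 to 5.56, 5.51 and 5.81. Experiment 2 started highest and differed least, by 0.29 against 1.18 and 1.21. The mean difference was 0.90 ± 0.183 (SE; 95% interval 0.50 to 1.29; adjusted p = 0.00176). Csf2rb2, the mouse-specific beta chain, went from 7.73, 7.80 and 8.20 to 8.81, 8.84 and 8.73, a difference of 0.88 ± 0.147 (SE; 95% interval 0.56 to 1.20; adjusted p = 0.000355). It was experiment 3 that differed least here, by 0.53. The pair are close paralogs and neighbours in the genome, and whether their probe sets also bind each other's RNA was not tested. The experiment with the smallest difference was not the same for the pair.

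Csf3r, the G-CSF receptor gene, went from 7.31, 7.18 and 7.02 to 7.80, 7.55 and 7.76. The groups did not overlap, as for 41.2% of all genes, and the difference was 0.53 ± 0.101 (SE; 95% interval 0.32 to 0.75; adjusted p = 0.000983). For Csf3r and for all the other genes except Csf1r and Csf2ra, the LPS call held under each alternative tried.

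**Figure D2:**
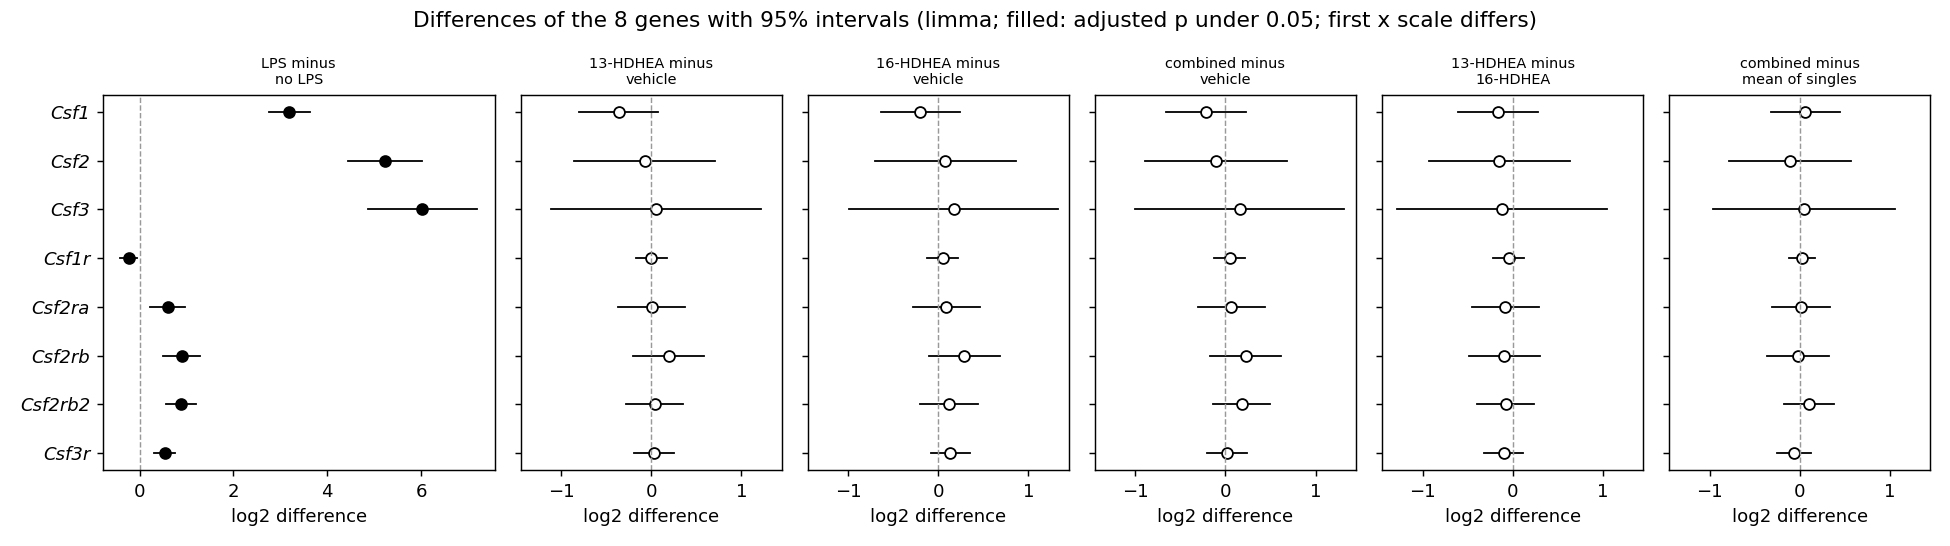
Points give the log2 difference of each of the 8 genes (y axis) in each comparison (1 panel each, log2 difference on the x axis), with 95% intervals from limma, and filled points have an adjusted p under 0.05. All 8 are filled for LPS, where Csf3 is the farthest out at 6.03, and none is filled in the 5 HDHEA comparisons drawn.

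The 3 ligand genes differed between experiments as well as between groups. Among the 12 LPS arrays, Csf3 ranged from 10.05 to 10.32 in experiment 1, from 8.80 to 9.001 in experiment 2 and from 8.50 to 8.58 in experiment 3. The experiments were therefore separated without overlap, and the 4 treatments within an experiment lay within 0.27 of each other. The gap between the highest and the lowest experiment mean was 1.64, at a percentile of 99.95 among all genes tested. Csf2 had another order, with 8.40 to 8.73 in experiment 1, 7.54 to 7.75 in experiment 2 and 8.31 to 8.53 in experiment 3. For Csf1 experiment 2 was the highest on average (9.23 to 9.73, against 9.14 to 9.48 and 9.03 to 9.27), and the ranges overlapped. In a limma F test of an experiment term among the LPS arrays, added after the values had been seen, the adjusted p was 1.1e-05 for Csf3, 0.00104 for Csf2 and 0.033 for Csf1, and 5.09% of all genes passed at 0.05. The 5 receptor genes did not pass it, with adjusted p from 0.0676 (Csf2rb) to 0.721 (Csf2ra).

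**Figure D3:**
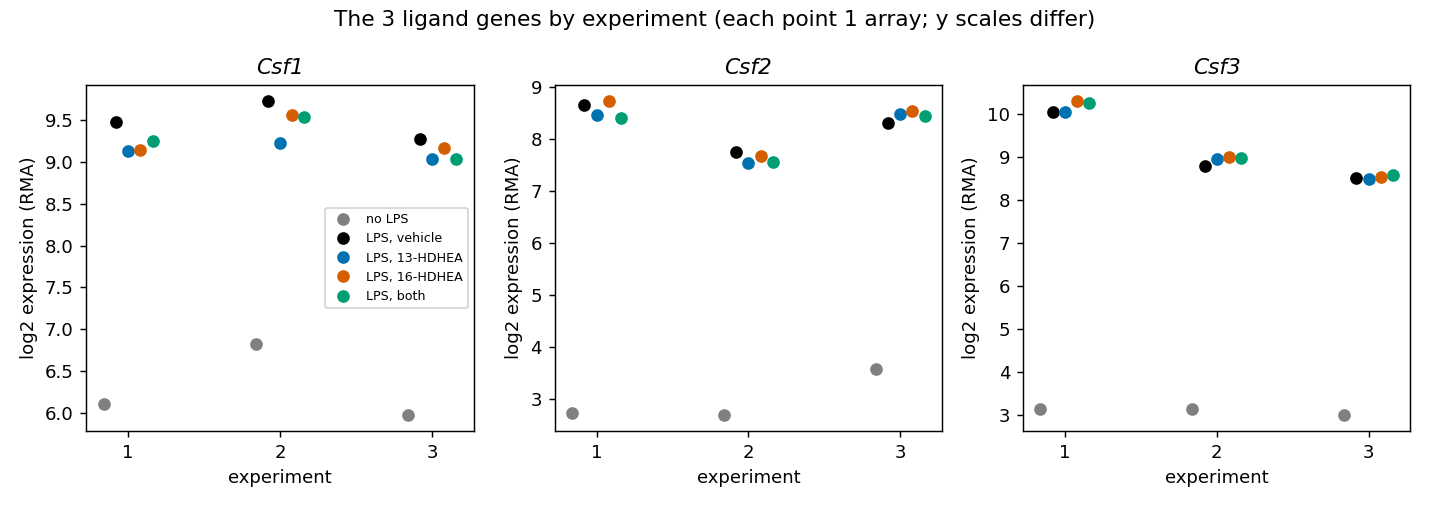
The log2 expression of Csf1, Csf2 and Csf3 (y axis, RMA values, scales differ) is plotted by experiment (x axis) with 1 point an array, coloured by group. With LPS, Csf3 falls into 3 separate levels of 10.05 to 10.32, 8.80 to 9.001 and 8.50 to 8.58, and Csf2 is lowest in experiment 2, at 7.54 to 7.75.

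The SEs of the ligand genes were larger than those of most genes and were smaller once the experiment was in the fit. The SE of a difference in the fit without experiments was 0.54 for Csf3 and 0.365 for Csf2, against a median of 0.126 over all genes. With the experiment as a block the SE fell to 0.254 for Csf3, 0.185 for Csf2 and 0.112 for Csf1, against a median of 0.109. LPS differences within an experiment were 3.37, 2.91 and 3.30 for Csf1. They are not given for Csf3 and Csf2, whose arrays without LPS were dim, all 3 for Csf3 and 2 of 3 for Csf2.

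None of the 8 genes passed the test in any HDHEA comparison. On top of LPS, the ligand and receptor genes had mean differences from vehicle between -0.36 and 0.20 on the log2 scale for 13-HDHEA, between -0.20 and 0.29 for 16-HDHEA, and between -0.22 and 0.22 for the combined treatment. Limma called 0 of 8 in each of the 6 comparisons, and 0 of 8 had an unadjusted p under 0.05. Of all genes, 0.00646% were called for 13-HDHEA against vehicle and for 13-HDHEA against 16-HDHEA, and 0% in the other 4 comparisons. The share of all genes at an unadjusted p under 0.05 was 2.97% to 4.27%. The 3 treatments were set against the same 3 vehicle arrays, so their differences are not independent of each other.

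Csf1 lay below vehicle with each treatment. Its arrays stood at 9.14, 9.23 and 9.03 with 13-HDHEA, at 9.14, 9.57 and 9.17 with 16-HDHEA and at 9.25, 9.54 and 9.03 with both, against 9.48, 9.73 and 9.27 with vehicle. The 13-HDHEA arrays all lay below the vehicle arrays, as they did for 4.60% of genes, and the other treatments overlapped with vehicle. The differences were -0.36 (95% interval -0.80 to 0.08) for 13-HDHEA, -0.20 (-0.64 to 0.24) for 16-HDHEA and -0.22 (-0.66 to 0.22) for the combined treatment, and none was called. Within experiments, each of the 9 HDHEA arrays lay below the vehicle array of its own experiment, with differences from -0.50 to -0.10, and 2.14% of genes did so. In the paired limma fit with experiment as a block, the adjusted p of Csf1 was 0.763 for 13-HDHEA and 0.84 for the mean of all treatments. Before adjustment Csf1 passed 0.05 in these comparisons, as did 6.23% and 5.72% of all genes, and the other 7 genes passed it in none of the 6. Csf1 nevertheless stayed 2.83 to 2.99 above the arrays without LPS in the 3 HDHEA groups, against 3.19 with vehicle.

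Csf2rb lay above vehicle with each treatment. Its arrays stood at 5.79, 5.82 and 5.87 with 13-HDHEA, at 5.77, 5.81 and 6.17 with 16-HDHEA and at 5.71, 5.75 and 6.09 with both, against 5.56, 5.51 and 5.81 with vehicle. Each of the 9 HDHEA arrays was above the vehicle array of its experiment, by 0.0621 to 0.364, as for 1.75% of genes. The differences were 0.20 (95% interval -0.20 to 0.59), 0.29 (-0.11 to 0.68) and 0.22 (-0.17 to 0.62), and none was called.

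The other 6 genes had no common direction over the 9 pairs of an HDHEA array and the vehicle array of its experiment. Csf2 was lower in 5 pairs and higher in 4 (-0.25 to 0.22), and Csf2ra lower in 4 and higher in 5 (-0.43 to 0.38). Csf3 was higher in 8 of 9 pairs, by at most 0.27, and Csf1r and Csf3r in 7 of 9 each. Csf2rb2 was higher in 6 of 9, and its widest pair, 0.57, was the combined treatment in experiment 3. The 9 pairs of a gene share 3 vehicle arrays and are not independent, and shares of all genes with such counts were not taken. For all treatments against vehicle, the 95% interval ran from -0.82 to 1.08 for Csf3, from -0.67 to 0.61 for Csf2 and from -0.11 to 0.17 for Csf1r. With the experiment as a block it was narrower, from -0.33 to 0.58 for Csf3 and from -0.36 to 0.30 for Csf2.

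**Figure D4:**
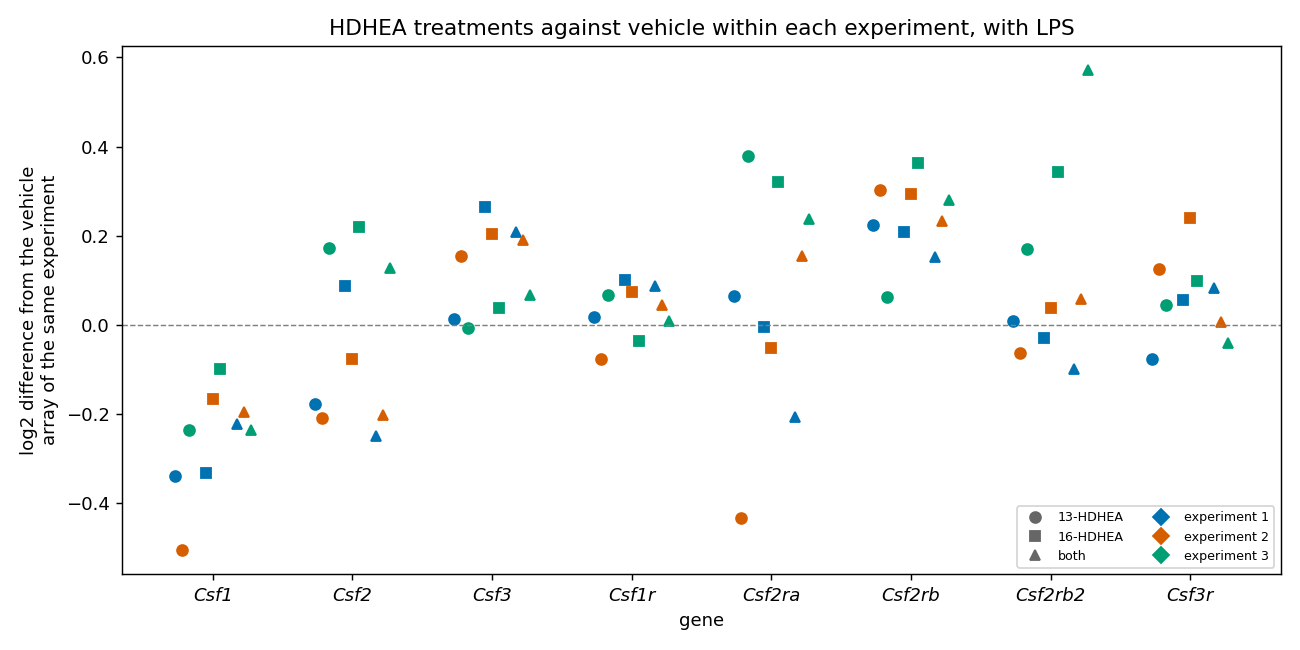
For each of the 8 genes (x axis), the y axis gives the log2 difference between each HDHEA array and the vehicle array of the same experiment, all with LPS, with 9 points a gene shaped by treatment and coloured by experiment. All points lie below 0 for Csf1 (-0.50 to -0.10) and above 0 for Csf2rb (0.06 to 0.36), and those of the other 6 genes fall on both sides.

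The isomers were compared at their matched dose of 5.0 µM, 1 matched pair. 13-HDHEA lay below 16-HDHEA in the mean of all 8 genes, with differences from -0.16 to -0.04 on the log2 scale. The 8 differences had a median of -0.10, against -0.01 over all genes, and none was called. All 8 come from the same arrays, so their shared direction is not 8 separate observations. The share of all genes with a lower mean was not counted. For Csf1 the difference was -0.16 (95% interval -0.60 to 0.28) and for Csf2 -0.15 (-0.93 to 0.64). For Csf3 it was -0.12 (-1.28 to 1.05), and for Csf1r, with the narrowest interval, -0.04 (-0.21 to 0.13). Csf1, Csf2, Csf3 and Csf3r were lower with 13-HDHEA in all 3 experiments, as were 13.8% of all genes. Leaving out 1 array turned the sign for Csf2, Csf3, Csf1r, Csf2ra, Csf2rb and Csf2rb2, but not for Csf1 or Csf3r. The combined treatment, at the same total dose, differed from the mean of the single ones by between -0.11 (Csf2, 95% interval -0.79 to 0.57) and 0.10 (Csf2rb2, -0.18 to 0.37).

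Genes next to the 8 in the genome, by RefSeq's order, mostly did not share the size of their LPS response. Il3, the interleukin-3 gene beside Csf2, was dim with and without LPS (2.47 ± 0.153 and 2.35 ± 0.0629, SD, n = 3) and was not tested. P4ha2, a collagen prolyl hydroxylase subunit gene on the other side of Csf2, rose by 1.17 (adjusted p = 2.68e-05), against 5.23 for Csf2. Beside Csf3, the proteasome gene Psmd3 rose by 0.44 (adjusted p = 0.000415) and the Mediator gene Med24 had a difference of 0.00 (adjusted p = 0.996). Ahcyl1, beside Csf1, had a difference of 0.03 (adjusted p = 0.852). Ncf4, an NADPH oxidase subunit gene beside Csf2rb2, rose by 0.55 (adjusted p = 9.03e-05), against 0.88 for Csf2rb2 and 0.90 for Csf2rb. Not called were Pdgfrb (-0.08) and Hmgxb3 (0.16) beside Csf1r, Gm7102 (-0.13) beside Csf2ra and Tex33 (0.19) beside Csf2rb. Tex33 was dim both without LPS (2.73) and with LPS and vehicle (2.93). Beside Csf3r, Mrps15 (-0.27) was not called and Grik3 was too dim to be tested.

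The genes with the most similar profile were found as those with the smallest root-mean-square distance between their 5 group means and a member's, each centred on its own mean. For Csf3 they were Acod1 (0.067), which makes itaconate, Ccl5 (0.17), a T-cell attracting chemokine, and Sprr2d (0.19). For Csf2 they were Nos2 (0.12), the inducible nitric oxide synthase, Il1f9 (0.13), an interleukin-1 family cytokine, and Socs3 (0.13), a feedback inhibitor of cytokine receptors. For Csf1 they were Trim30c (0.078), Osbp2 (0.083) and Apol9b (0.084), each higher with LPS by between 3.03 and 3.09.

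Distances were smaller for the receptor genes, whose group means span less. Csf1r was closest to Pacsin2 (0.0058), Cap1 (0.0067) and Qdpr (0.0070), and Csf2ra to Foxn3 (0.0079), Gpr84 (0.013) and Stap1 (0.015). Csf2rb was closest to Sox30 (0.042), E230016K23Rik (0.043) and Capns2 (0.055), and Csf2rb2 to Vasp (0.034), Ngly1 (0.036) and Thg1l (0.036). Csf3r was closest to Nfil3 (0.015), Rhbdd2 (0.020) and 9530082P21Rik (0.021). The measure rests on 5 group means and has no test. For Csf2, Csf3, Il1f9 and Sprr2d the mean without LPS was dim (3.00, 3.09, 2.52 and 1.98), so that their distances rest in part on values with no reliable order.

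Of the other ligands and chains of the same receptors, the Csf1r ligand gene Il34, Il3 and Il5ra were too dim to be tested. Il5 (-0.05) and Il3ra (0.00), the interleukin-3 alpha chain, were tested and not called for LPS. Il5 was dim both without LPS (2.98) and with LPS and vehicle (2.94), so its difference says little. Thus among the ligand genes of these receptors, Csf1, Csf2 and Csf3 were the ones called, and Il34, Il3 and Il5 were dim.

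Genes of the signalling steps next to the receptors moved in both directions with LPS. Of 21 tested, 3 rose and 7 fell, where 13.5% of all genes rose and 16.3% fell, and the median was -0.15 against 0.00 over all genes. Those that rose were the kinases Jak2 (2.71 ± 0.111, SE; adjusted p = 7.99e-10), which GM-CSF and G-CSF receptors use, and Tyk2 (0.71, adjusted p = 4.35e-05), and Stat3 (0.66, adjusted p = 9.46e-06), the main STAT of the G-CSF receptor. Of those that fell, Pik3cd, a phosphoinositide 3-kinase subunit gene, had the smallest p and fell by 0.90 (adjusted p = 1.14e-05).

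Of 18 genes for feedback on these receptors and for their shedding or turnover, 6 rose and 4 fell (13.5% and 16.3% of all genes), with a median of 0.22. Socs3 rose by 4.88 ± 0.114 (SE; adjusted p = 1.54e-12), from 3.85 to 8.73. Socs1 (1.33, adjusted p = 1.16e-05) and Cish (1.53, adjusted p = 5.07e-05), other inhibitors of JAK and STAT signalling, rose as well. Rhbdf2, a partner of the sheddase ADAM17 that releases membrane proteins including the M-CSF receptor, rose by 0.93 (adjusted p = 4.47e-07). The sheddase genes Adam17 (-0.35, adjusted p = 0.0084) and Adam10 (-0.64, adjusted p = 0.000171), named here after their values were seen, fell.

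Of 21 transcription factor genes of the myeloid lineage and of the promoters of these genes, 8 rose and 4 fell (13.5% and 16.3% of all genes), with a median of -0.04. These counts moved when 1 array was left out: 5 rose and 5 fell without the no-LPS array of experiment 2, and 2 fell without the no-LPS array of experiment 1 or 3 or the vehicle array of experiment 2. The immediate early gene Egr1 rose by 2.52 (adjusted p = 1.75e-05) and Cebpb, a C/EBP factor of activated macrophages, by 1.24 (adjusted p = 1.82e-05). Nfatc1, the main osteoclast factor, fell by 0.83 (adjusted p = 1.18e-05), and the AP-1 subunit gene Jun fell by 0.76 (adjusted p = 1.72e-05).

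Of 22 genes known to respond to these factors, 9 rose and 6 fell (13.5% and 16.3% of all genes), with a median of 0.55. Osm, which encodes the cytokine oncostatin M, rose by 3.12 (adjusted p = 1.25e-09) and Il4ra, the interleukin-4 receptor alpha chain gene, by 2.43 (adjusted p = 2.42e-09). Bcl2a1a, a survival gene with near-identical copies that its probe set may not tell apart, rose by 3.83 (adjusted p = 4.2e-09). Ccnd1, the cyclin D1 gene, which M-CSF induces, fell by 1.95 (adjusted p = 4.2e-09). Many genes of this list also answer to LPS without these factors, so the counts do not separate the agents.

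Of 10 genes for proteins that bind AU-rich or stem-loop elements of cytokine RNA, the class to which Csf2 RNA belongs, 2 rose and 4 fell (13.5% and 16.3% of all genes), with a median of -0.15. Zc3h12a, which encodes the ribonuclease regnase-1, rose by 3.16 ± 0.0936 (SE; adjusted p = 2.59e-11), and Zfp36, which encodes the decay factor tristetraprolin, by 1.40 (adjusted p = 2.14e-05). Its relative Zfp36l2 fell by 1.63 (adjusted p = 6.06e-07), and Khsrp fell by 0.45 (adjusted p = 0.000348). No gene of the 6 lists was called in any HDHEA comparison.

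**Figure D5:**
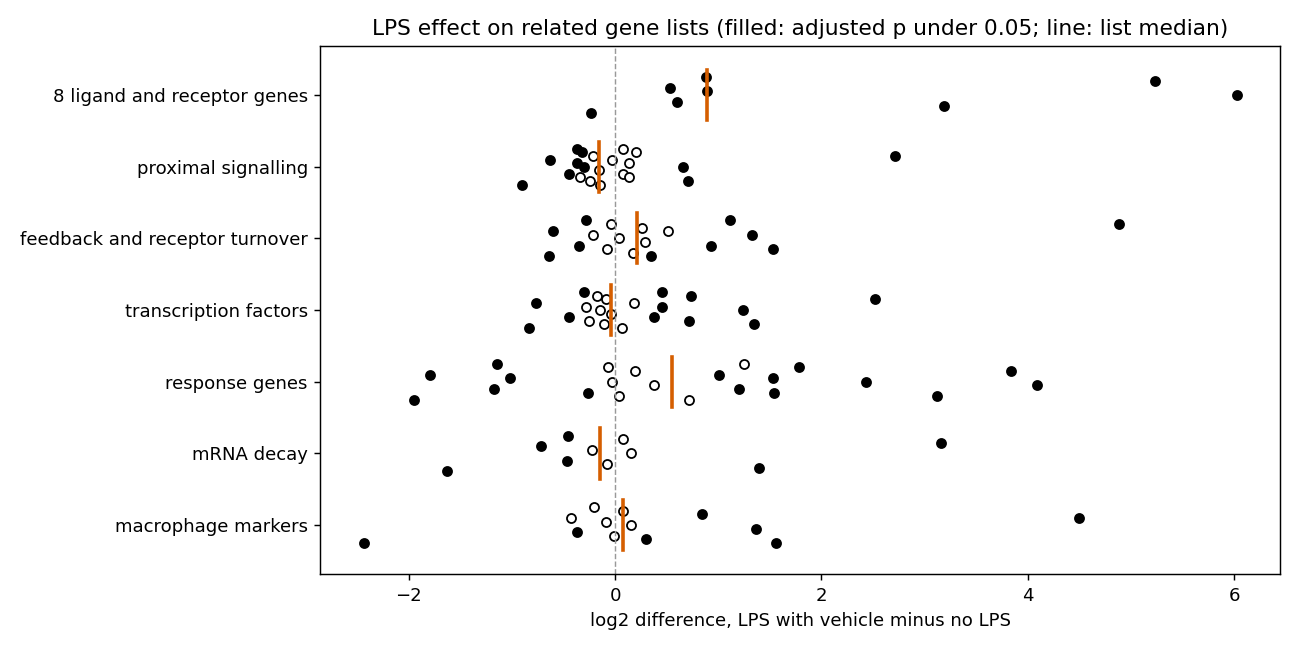
Each point is the log2 difference between LPS with vehicle and no LPS (x axis) of 1 gene of the list named on the y axis, filled where the adjusted p was under 0.05, with a line at the list's median. The medians lie at 0.89 for the 8 ligand and receptor genes and between -0.15 and 0.55 for the 5 pathway lists and the macrophage markers drawn under them.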

How the data were processed

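Each deposited value is the log2 expression of 1 probe set on an array hybridised with whole-transcript target. Per the submitters' processing notes the authors made them with RMA, which corrects background, quantile-normalizes arrays and summarises probes. Its version is not given in the sources used here. A shift common to most genes is lost in quantile normalization, and differences between dim values come out too small.

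Of 41345 probe sets, 23521 carried 1 gene symbol. For 1082 genes more than 1 probe set was listed, and the brightest on average was kept. A gene was tested where it exceeded the array's 40th percentile in at least 3 arrays, which set aside 6712 genes. The arrays could be of any group, so a gene dim without LPS could enter through the arrays with LPS, as Csf3 and Csf2 did. Where a group mean lay under the mean of its arrays' 40th percentiles, a fold from it is a lower bound on the mean fold, without the spread between arrays. The test was limma's (version 3.58.1, R 4.3.3; lmFit, then eBayes without trend or robust settings) in 1 model of 5 group means over 15 arrays, with 10 residual degrees of freedom and two-sided p-values adjusted by Benjamini-Hochberg over all 15468 genes in each of 7 comparisons. The fit was tested on simulated data with independent noise and no differences between experiments, so that test does not cover such differences. Alternatives were other filters, scalings, probe set rules and variance models, the experiment as a block, only the compared groups, and each array left out in turn.

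In the labels a replicate number goes with an experiment identifier, so equal numbers pair arrays. Deviations from group means correlated at 0.084 to 0.4 over the 30 same-numbered pairs, above 0.1 in 28, and all 15 arrays correlated best with their own number. The labels do not describe how the experiments differed.

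The 8 genes, the lists and the markers were chosen with earlier results of these data known. Named beside the 8 genes were up to 4 called genes a list with the smallest p for LPS, the 3 genes with the most similar group means, and genomic neighbours, which were added afterwards. Sequences are from RefSeq (GRCm38.p6).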

Additional observations from a re-analysis of the deposited data

Results flagged for a closer look

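A second probe set assigned to Csf2 was not used in the tests, since its mean over the arrays was lower. It also carried a signal with LPS, and its mean rose from 3.16 without LPS to 3.97 with LPS and vehicle, a log2 difference of 0.81. The difference was 0.73, 0.81 and 0.88 in experiments 1, 2 and 3. All 12 LPS arrays (3.67 to 4.40) lay above the 3 arrays without LPS (2.89 to 3.57). The direction is that of the Csf2 probe set used in the report, and the size is far smaller. The Csf2 difference for LPS is 3.02 when the probe sets are averaged. Which transcript or strand the second probe set reads was not tested.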

How the results depend on the processing

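The LPS result, 8 of 8 genes called, stood at 6 to 8 over the alternatives, and Csf1, Csf2, Csf3, Csf2rb, Csf2rb2 and Csf3r were called in each. The Csf1r call was lost in 6 alternatives and the Csf2ra call in 2, whose values stand in the report. No LPS direction turned. The 6 HDHEA counts were 0 of 8 under every alternative. The fit with the replicate block called the same 8 of 8 genes for LPS and changed no other call among the 8. Centring each array on its median raised the LPS median of all genes by 0.0587 and turned the split of LPS calls from 2089 higher and 2527 lower to 2534 and 2082. None of the 20 named list genes changed its LPS call.

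Signs turned only for uncalled HDHEA differences, where the direction should not be read. Repeating the quantile normalization put Csf1r for 13-HDHEA minus vehicle at -0.000395. All 64 other reversals came from leaving out 1 array, and the lowest and highest log2 differences are given for each such result. For 13-HDHEA minus vehicle the ranges were Csf2 -0.31 to 0.24, Csf3 -0.39 to 0.52, Csf1r -0.059 to 0.049, Csf2ra -0.11 to 0.14, Csf3r -0.043 to 0.079. For 16-HDHEA minus vehicle the ranges were Csf2 -0.17 to 0.40, Csf3 -0.34 to 0.64. For the combined treatment minus vehicle the ranges were Csf2 -0.35 to 0.18, Csf3 -0.34 to 0.62, Csf2ra -0.064 to 0.20, Csf3r -0.064 to 0.10. For 13-HDHEA minus 16-HDHEA the ranges were Csf2 -0.47 to 0.16, Csf3 -0.56 to 0.40, Csf1r -0.11 to 0.0024, Csf2ra -0.20 to 0.053, Csf2rb -0.17 to 0.035, Csf2rb2 -0.14 to 0.0031. For the combined treatment minus the mean of the single ones the ranges were Csf1 -0.069 to 0.18, Csf2 -0.27 to 0.18, Csf3 -0.45 to 0.39, Csf1r -0.000256 to 0.054, Csf2ra -0.11 to 0.16, Csf2rb -0.14 to 0.047, Csf2rb2 -0.067 to 0.23, Csf3r -0.15 to 0.014. For all treatments minus vehicle the ranges were Csf2 -0.28 to 0.17, Csf3 -0.18 to 0.59, Csf2ra -0.021 to 0.13, Csf3r -0.014 to 0.11. In these fits the left-out array unbalances the experiments, whose levels differ most for Csf3 and Csf2. Arrays give no count depth, and without LPS the Csf2 and Csf3 group means were dim (2 of 3 and 3 of 3 arrays), so their rise has only a bound.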
